A study of Arabidopsis thaliana with 12 samples.

Results

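The genes examined here are 5 protein-coding genes of the Arabidopsis thaliana mitochondrial genome: nad4, nad4L, cox1, ccb382 and orfX. They were selected as the probe sets whose array annotation names a single one of these genes, which gave 1 probe set per gene, 5 of the 13350 genes that the annotation names singly and 5 of the 22810 probe sets on the ATH1 array (244929_at for nad4, 244902_at for nad4L, 257333_at for cox1, 244912_at for ccb382 and 244928_s_at for orfX). The probe sets were taken by name and not by a measured value, but the 5 genes were chosen with earlier results of these data known. The annotation names 16 mitochondrial genes singly, and these 5 are among them. RNA came from whole roots at growth stage 3.90, with 20 to 40 plants pooled, and was hybridised to 12 arrays, 3 for each of 4 genotypes. The mutant lines were cngc4 and cngc1, each named for a cyclic nucleotide-gated channel, and akt1. The akt1 line carries the allele akt1-1 of an inward potassium channel in the Wassilewskija accession. The wild type was ws2, that same accession. For cngc4 and cngc1 the labels give neither an allele nor a background accession, so for these lines mutation and accession cannot be told apart. The AKT1, CNGC1 and CNGC4 genes themselves were not analysed here, so the genotypes are as labelled. Titles mark cngc4 replicate 1 and ws2 replicates 2 and 3 as a repeat, without saying what was repeated.

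The plant mitochondrial genome keeps a small set of genes for the respiratory chain, and the nucleus supplies most of the other subunits, which are imported. Complex I takes electrons from NADH and pumps protons across the inner membrane, and nad4 and nad4L encode membrane subunits of its proton-pumping arm. Complex IV passes electrons from cytochrome c to oxygen, and cox1 encodes its catalytic core subunit. The collective name respiratory genes fits these 3 directly. The other two encode helpers: the TAIR10.1 annotation lists ccb382 as ccmFN1, a component of the machinery that attaches heme to c-type cytochromes, and orfX as mttB, a membrane protein related to the bacterial TatC translocase. In the order of the 33 protein-coding genes of that annotation, nad4 is 17th and mttB the 18th, directly beside it. Nad4L is 32nd, between cox3 and atp4, ccmFN1 is 30th, between ccmC and cox3, and cox1 is 10th, between nad1 and rps4. The annotation was used for names and order only, since no build was found for the array's probes.

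Plant mitochondrial transcripts are mostly not polyadenylated, and a poly(A) tail there marks RNA for degradation. The labelling used an oligo(dT) primer, so the signals are signals of the RNA that such a primer copied, and their relation to the total amount of each transcript was not tested. The suffix _s_at on the orfX probe set marks probes that match more than 1 transcript, and Arabidopsis also carries a nuclear copy of much of the mitochondrial genome, so the source of a signal between near-identical copies is uncertain. All values are signal intensities in arbitrary units as deposited, and levels were compared between genotypes for the same probe set, never between probe sets. Differences were tested with limma on log2(signal + 16) in 1 fit over all 12 arrays, with Benjamini-Hochberg adjustment over the 14745 probe sets that lay above the 40th percentile of their array on at least 3 arrays, and an adjusted p under 0.05 was counted as a change. An exact permutation test of 3 arrays against 3 cannot go below p = 0.10. All 5 genes passed the filter on low values, nad4, cox1, ccb382 and orfX on all 12 arrays. Nad4L was above the 40th percentile on 8 of 12 arrays, 5 of them outside cngc4, so its level lies near the filter, and the size of its fold change depends on the offset.

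Median signal over all probe sets was between 43.3 and 48.5 on the 12 arrays. The 3'/5' signal ratio of actin, a measure of RNA integrity, was 1.64 to 1.94 on the cngc4 arrays, 1.42 to 1.54 for cngc1, 1.58 to 2.06 for akt1 and 1.53 to 1.94 for ws2. The array of cngc1 replicate 3 had the highest background (143.1), noise (12.89) and number of outlier cells (1251) of all 12.

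In cngc4 roots, nad4L and cox1 were higher than in ws2 roots, and nad4, ccb382 and orfX did not pass the test. Of the 5 genes 2 passed, both higher, where 9.09% of all tested probe sets passed in either direction and 4.69% passed as higher. With 5 genes, chosen with earlier results of these data known, neither this share nor the signs and median that follow can be read closely. All 5 log2 fold changes were above 0, with a median of 0.41, while 46.0% of all tested probe sets had a positive value and their median was -0.03. The 3 cngc4 arrays lay above the 3 ws2 arrays for the same 2 genes, nad4L and cox1, against 15.0% of all tested probe sets. In cngc1 and akt1, none of the 5 genes differed from ws2 after adjustment.

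**Figure D1:**
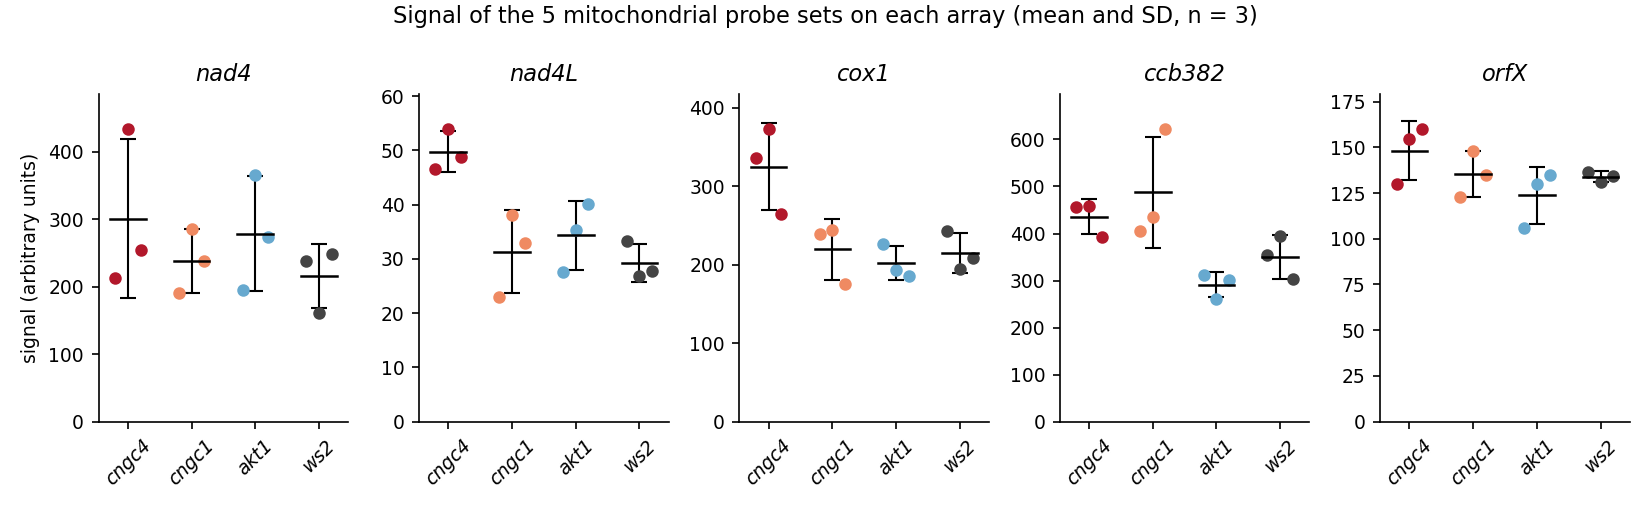
Signal (arbitrary units, linear axis from 0) of the 5 probe sets on each of the 12 arrays, with cngc4, cngc1, akt1 and ws2 from left to right; points are arrays in replicate order, horizontal lines are means and bars are SD (n = 3). The 3 cngc4 arrays lie above all 9 other arrays for nad4L, with the lowest at 46.5, and for cox1, with the lowest at 264.2. The share of all tested probe sets with this pattern was not counted. Nad4 ranges from 213.2 to 434.5 within cngc4 alone.

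Nad4L, one of the smallest membrane subunits of complex I, had signals of 46.5, 54.0 and 48.8 in cngc4 roots, of 23.0, 38.0 and 33.0 in cngc1 roots, of 27.5, 35.4 and 40.1 in akt1 roots, and of 33.3, 26.9 and 27.7 in ws2 roots. The cngc4 arrays were the 3 highest of the 12, and the other genotypes overlapped one another. How many of all tested probe sets have their 3 highest arrays in cngc4 was not counted. The means were 49.77 ± 3.84 in cngc4, 34.33 ± 6.37 in akt1, 31.33 ± 7.64 in cngc1 and 29.3 ± 3.49 in ws2 (SD, n = 3 each), in that order, and no neighbours in the order differed by the test. Cngc4 exceeded ws2 by 0.54 on the log2 scale (SE 0.16, 95% interval 0.208 to 0.87, 1.45-fold), with a limma adjusted p of 0.0430. This call lies close to the threshold. Leaving out any of ws2 replicates 1, 2 and 3 gave adjusted p-values of 0.0678, 0.137 and 0.0995, leaving out any of cngc4 replicates 1, 2 and 3 gave 0.0713, 0.187 and 0.0859, and leaving out akt1 replicate 2 gave 0.052, with log2 fold changes of 0.49 to 0.60. With the offset raised to 64 the log2 fold change was 0.29, and it was called. Without an offset it was 0.77, and the call was lost (limma adjusted p = 0.054).

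Nad4 encodes a larger proton-pumping subunit of the same arm. Its signal was 213.2, 434.5 and 255.2 in cngc4 roots, 190.8, 285.4 and 237.7 in cngc1 roots, 195.7, 365.8 and 274.2 in akt1 roots, and 237.8, 161.1 and 248.3 in ws2 roots. All 4 genotypes overlapped, and the highest array of cngc4 was more than 2 times its lowest. The means, in falling order, were 301 ± 118 in cngc4, 278.6 ± 85.1 in akt1, 238 ± 47.3 in cngc1 and 215.7 ± 47.6 in ws2 (SD, n = 3 each), with no neighbours differing by the test. The difference between cngc4 and ws2 was 0.41 on the log2 scale with a 95% interval of -0.13 to 0.955 and a limma adjusted p of 0.349, so that neither no change nor a change as large as that of nad4L lies outside the interval. Leaving out cngc4 replicate 2, the highest array, left a difference of 0.13, and leaving out ws2 replicate 2, the lowest, left 0.23.

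Cox1, the catalytic subunit of complex IV, had signals of 336.5, 373.4 and 264.2 in cngc4 roots, of 239.5, 244.2 and 174.8 in cngc1 roots, of 226.7, 192.8 and 185.9 in akt1 roots, and of 242.8, 193.9 and 208.5 in ws2 roots. As for nad4L, every cngc4 array was above every array of the other genotypes, a pattern whose share among all tested probe sets was not counted. Mean signals were 324.7 ± 55.5 in cngc4, 219.5 ± 38.8 in cngc1, 201.8 ± 21.8 in akt1 and 215.1 ± 25.1 in ws2 (SD, n = 3 each). In order, cngc4 came before cngc1, ws2 and akt1, and here too no neighbours in the order differed by the test. Cngc4 exceeded ws2 by 0.55 on the log2 scale (SE 0.16, 95% interval 0.212 to 0.893, 1.47-fold, limma adjusted p = 0.0440). The call was lost without ws2 replicates 1, 2 or 3 (adjusted p = 0.0612, 0.159 and 0.0942), without cngc4 replicates 1 or 2 (0.105 and 0.217), and by small margins without cngc1 replicate 1, akt1 replicate 2 or akt1 replicate 3 (0.0511, 0.0523 and 0.0549). Without the 3 arrays marked as a repeat the difference was 0.35 with an adjusted p of 0.620, and among the marked arrays alone, 1 of cngc4 and 2 of ws2, it was 0.70 with an adjusted p of 0.285. For nad4L the same sets of arrays gave 0.45 (0.497) and 0.53 (0.41), the first with the marked arrays left out and the second within them. These subsets were chosen after seeing the data, and each leaves a genotype with 1 array, which the fit assumes to vary like the others. With the repeat mark as a covariate over all 12 arrays, cox1 had 0.53 (adjusted p = 0.103) and nad4L 0.49 (0.106).

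**Figure D2:**
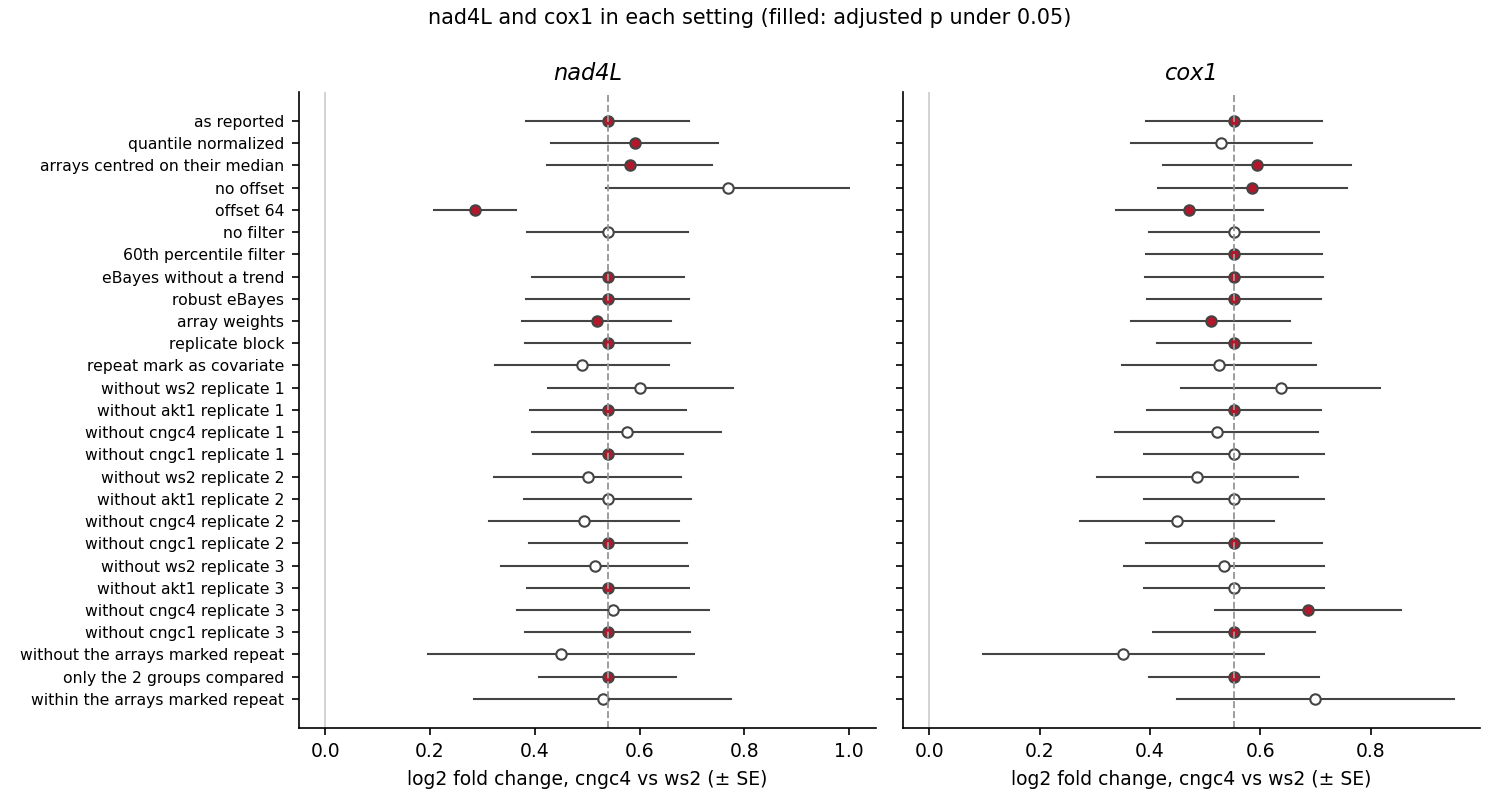
Log2 fold change (horizontal axis, ± SE) of nad4L (left) and cox1 (right) in cngc4 against ws2 as reported and under each alternative setting, listed down the page; filled points have a limma adjusted p under 0.05, and nad4L has no point under the 60th percentile filter, which it did not pass. All points lie above 0, between 0.29 and 0.77 for nad4L and between 0.35 and 0.70 for cox1, and about as many points are open as filled (13 of 25 alternatives called for nad4L and 13 of 26 for cox1).

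Ccb382, of the heme attachment machinery, followed another order. Its signal was 457.3, 457.8 and 392.6 in cngc4 roots, 405.3, 435.8 and 623.0 in cngc1 roots, 310.9, 260.9 and 300.6 in akt1 roots, and 354.1, 394.0 and 302.3 in ws2 roots. Here cngc1 had the highest mean, 488 ± 118, followed by cngc4 with 435.9 ± 37.5, ws2 with 350.1 ± 46 and akt1 with 290.8 ± 26.4 (SD, n = 3 each), and no neighbours in this order differed by the test. All 3 cngc1 arrays were above all 3 ws2 arrays, while 1 cngc4 array (392.6) fell just below the highest ws2 array (394.0). The log2 fold change of cngc4 over ws2 was 0.31 (95% interval -0.0351 to 0.651, limma adjusted p = 0.263). It was the 1 gene of the 5 that passed limma's F test over the 4 genotypes (adjusted p = 0.0454), which 6.34% of all tested probe sets passed. The adjusted p of that test was 0.0603 for cox1, 0.108 for nad4L, 0.60 for nad4 and 0.578 for orfX. The F test no longer called ccb382 in 10 of the 12 fits that left out an array. In 8 of these, without ws2 replicates 1 or 2, cngc4 replicates 1, 2 or 3, akt1 replicates 2 or 3, or cngc1 replicate 2, it called none of the 5 genes, and in the other two, without akt1 replicate 1 or cngc1 replicate 3, it called cox1. With the replicate number as a block it likewise called cox1 and not ccb382.

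OrfX, the TatC-related membrane protein gene, varied least between genotypes. It had signals of 130.0, 154.5 and 160.2 in cngc4 roots, of 122.8, 148.2 and 134.9 in cngc1 roots, of 106.1, 130.2 and 135.0 in akt1 roots, and of 136.7, 131.0 and 134.2 in ws2 roots. The ws2 arrays lay within a narrow band, and each mutant's arrays overlapped them. Means were 148.2 ± 16 in cngc4, 135.3 ± 12.7 in cngc1, 123.8 ± 15.5 in akt1 and 134 ± 2.86 in ws2 (SD, n = 3 each), and no pair of genotypes differed by the test. For cngc4 against ws2 the 95% interval of the log2 fold change was -0.144 to 0.397 (estimate 0.13, limma adjusted p = 0.579). Although orfX lies beside nad4 on the genome, the intervals of both genes in this comparison span 0.

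In cngc1 roots none of the 5 genes differed from ws2 in limma after adjustment, in a comparison where 0.00678% of tested probe sets, a single one, did. An unadjusted p under 0.05 was reached by 1 of the 5 and by 7.32% of all tested probe sets. That gene was ccb382, with a log2 fold change of 0.44 (SE 0.16, 1.36-fold, 95% interval 0.101 to 0.787, limma adjusted p = 0.607). All 3 cngc1 arrays were above all 3 ws2 arrays for ccb382, as for 6.98% of tested probe sets. Its highest array, cngc1 replicate 3, was the one with the highest background and noise, and without it the difference was 0.26. The part of array quality in this value was not tested. The other 4 genes had log2 fold changes of 0.14 (nad4), 0.05 (nad4L), 0.02 (cox1) and 0.01 (orfX), all of which turned below 0 in at least 1 alternative, with adjusted p-values of 0.935, 0.965, 0.988 and 0.993.

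In akt1 roots limma likewise called none of the 5 genes against ws2, and none of the 14745 tested probe sets (0%). An unadjusted p under 0.05 was reached by 0 of the 5 and by 5.06% of all tested probe sets. Nad4 had a log2 fold change of 0.33 (95% interval -0.216 to 0.87, adjusted p = 0.958) and nad4L one of 0.15 (-0.184 to 0.478, adjusted p = 0.967). The nad4 value was 0.12 without akt1 replicate 2, 0.54 without akt1 replicate 1, 0.14 without ws2 replicate 2, 0.17 without the arrays marked as a repeat and 0.047 with that mark as a covariate. Cox1, ccb382 and orfX had values of -0.08, -0.25 and -0.11, with adjusted p-values of 0.98, 0.957 and 0.97. Arrays of the genotypes overlapped for all 5 genes, where 9.66% of all tested probe sets did not overlap. For nad4L the upper bound here (0.478) exceeded the lower bound of cngc4 over ws2 (0.208), so the intervals overlapped. Those of cox1 overlapped as well, with bounds of 0.256 and 0.212. Both comparisons share the ws2 arrays. The direct test of cngc4 against akt1 called cox1 (limma adjusted p = 0.0243) and did not call nad4L (0.129).

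**Figure D3:**
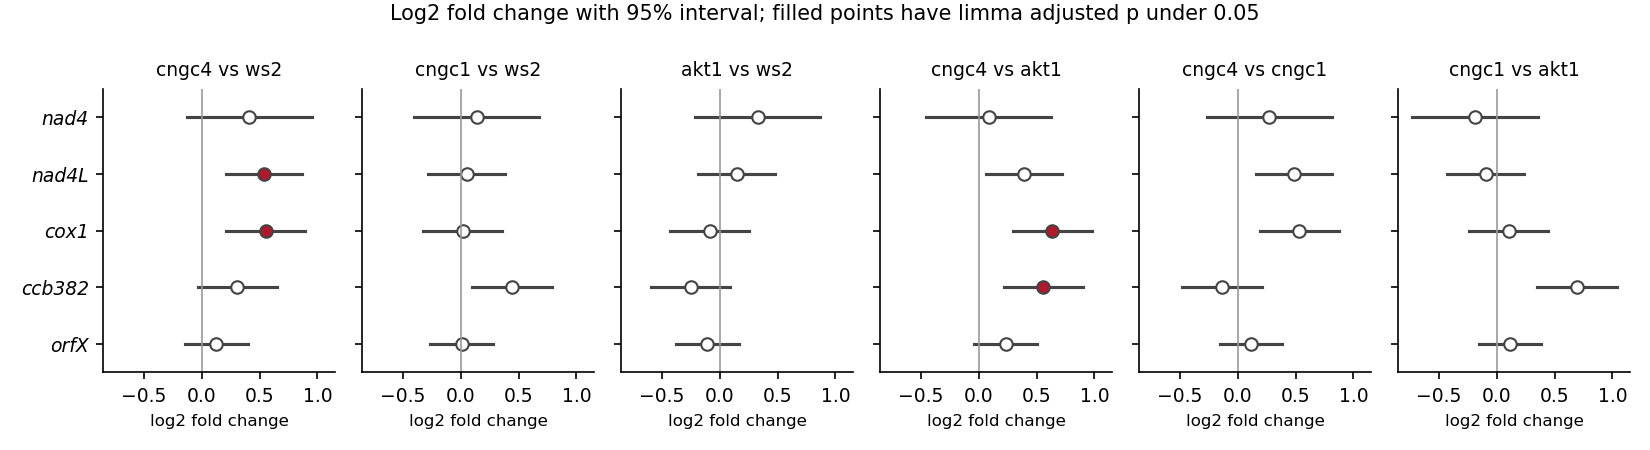
Log2 fold changes (horizontal axes) of the 5 genes in the 6 comparisons between genotypes, the first-named genotype over the second, with 95% intervals from the fit over 12 arrays; filled points have a limma adjusted p under 0.05. Filled points are nad4L (0.54) and cox1 (0.55) in cngc4 vs ws2 and cox1 (0.64) and ccb382 (0.56) in cngc4 vs akt1.

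Among the mutants, cngc4 differed from akt1 in 2 of the 5 genes, both higher in cngc4, where 8.88% of all tested probe sets passed in either direction and 4.54% as higher. Cox1 was higher in cngc4 by 0.64 on the log2 scale (SE 0.16, 1.56-fold, limma adjusted p = 0.0243), and ccb382 by 0.56 (SE 0.16, 1.47-fold, limma adjusted p = 0.0425). For both, and for nad4L (0.39, 95% interval 0.0614 to 0.723, adjusted p = 0.129), all cngc4 arrays were above all akt1 arrays, a pattern that 14.5% of tested probe sets showed. Nad4 (0.09, adjusted p = 0.874) and orfX (0.23, adjusted p = 0.27) overlapped. The comparison shares its cngc4 arrays with that against ws2. For cox1 the value in cngc4 was 0.55 over ws2 and 0.64 over akt1, and for ccb382 it was 0.31 over ws2 and 0.56 over akt1. The cox1 call was lost without cngc4 replicates 1 or 2 (adjusted p = 0.0687 and 0.128) and without akt1 replicates 2 or 3 (0.0955 and 0.0792). The ccb382 call was lost without those same 4 arrays (0.113, 0.154, 0.161 and 0.0831), without cngc4 replicate 3 (0.0508) and without ws2 replicate 1 (0.0599). With the replicate number as a block, ccb382 had an adjusted p of 0.057.

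Between the channel mutants of the CNGC family, limma called none of the 5 genes in cngc4 against cngc1, where 5.17% of tested probe sets passed. An unadjusted p under 0.05 was reached by 2 of the 5 and by 22.7% of all tested probe sets. These were cox1, with a log2 fold change of 0.53 (95% interval 0.193 to 0.874, limma adjusted p = 0.0664), and nad4L, with 0.49 (0.155 to 0.817, limma adjusted p = 0.081), and for both the 3 cngc4 arrays lay above the 3 cngc1 arrays, as for 11.8% of tested probe sets. With the replicate number as a block the adjusted p of cox1 was 0.0429, and without cngc4 replicate 3 it was 0.0407. Ccb382 was the gene with a value below 0, -0.14 (adjusted p = 0.665). In cngc1 against akt1, limma called none of the 5, and 0.00678% of all tested probe sets passed. Ccb382 had a log2 fold change of 0.70 there (SE 0.16, 1.62-fold, 95% interval 0.352 to 1.04, limma adjusted p = 0.208), and 0.51 without cngc1 replicate 3. It was the 1 gene of the 5 at an unadjusted p under 0.05, which 11.2% of all tested probe sets reached. All 3 cngc1 arrays lay above all 3 akt1 arrays for it, as for 9.01% of tested probe sets.

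The array names 18 further probe sets singly for 11 other mitochondrial genes, of which 9 probe sets of 7 genes passed the filter, and the remaining 9 probe sets gave no tested value. None of the 9 differed between cngc4 and ws2 in limma after adjustment, and 1 did at an unadjusted p under 0.05, as did 23.9% of all tested probe sets. Their log2 fold changes had a median of 0.29 (range -0.21 to 0.52), 7 of them above 0. The median was 0.41 for the 5 genes above, which were chosen with earlier results known, and -0.03 for all tested probe sets. The 1 of the 9 at an unadjusted p under 0.05 was nad5 (257338_s_at), a further proton-pumping subunit of complex I. Its signals were 90.5, 93.4 and 50.1 in cngc4, 56.7, 45.1 and 41.8 in cngc1, 40.8, 39.5 and 43.2 in akt1 and 54.5, 43.0 and 46.7 in ws2. Its cngc4 arrays were the highest except for replicate 3, which lay below 1 ws2 array and 1 cngc1 array. Its log2 fold change in cngc4 was 0.52 over ws2 (limma adjusted p = 0.0763) and 0.68 over akt1 (limma adjusted p = 0.0257), and over akt1 it was the 1 of 9 that passed. Probe sets of nad1, another complex I subunit gene, disagreed among themselves in cngc4 against ws2, with values of 0.44 (257323_at), 0.15 (257324_at) and -0.21 (257321_at), none passing. Cox2, the partner of cox1 in complex IV, had a value of 0.37 (adjusted p = 0.285). Of the other cytochrome c maturation genes, ccb452 had 0.34 (adjusted p = 0.216) and ccb206 -0.16 (adjusted p = 0.534). The 3 cngc4 arrays lay below the 3 ws2 arrays for 2 of the 9, ccb206 and nad1 (257321_at). They lay above them for 0 of the 9. Among all 14745 tested probe sets, 2349 separated as lower and 2205 as higher.

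Plastid transcripts and shoot marker genes were also measured in these roots. The plastid ndh genes encode a complex related to mitochondrial complex I, and 8 of their 10 probe sets were tested. In cngc4 against ws2 limma called none of the 8, 6 had an unadjusted p under 0.05 (23.9% of all tested probe sets), and their median log2 fold change was 0.70. Against akt1, 6 of 8 were called higher, beside 4.54% of all tested probe sets, with a median of 1.08. Of all 62 tested plastid-genome probe sets, 8 were higher in cngc4 than in ws2, beside 4.69% of all tested probe sets, and the median of the 62 was 0.46. The leaf light-harvesting gene LHCB4.1 was higher in cngc4 by 1.34 (limma adjusted p = 0.00106), while RCA, PRK and SBPASE, of carbon fixation, had 0.63, 0.51 and 0.36 without passing. The summed signal of these 4 shoot markers, of 9 fixed, spanned 540.7 to 635 on the cngc4 arrays, 224.2 to 323.4 for cngc1, 218.4 to 242.5 for akt1 and 230.3 to 366.1 for ws2, and none was at 0. Of 8 fixed root markers, EXPA7 and EXPA18 of root hairs were matched to a probe set by the gene names used here, and neither passed. Their summed signal spanned 261.4 to 333.4 on the cngc4 arrays, 273.8 to 395.6 for cngc1, 252.6 to 465 for akt1 and 285.4 to 608.5 for ws2. The other fixed markers of shoot and root were not matched, which does not show that the array lacks them. In whole roots, a change in the number of cells of a type and a change in RNA per cell cannot be told apart. The part of shoot or plastid-rich tissue in the values of nad4L and cox1 was not tested.

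Nuclear genes for respiration and mitochondrial gene expression had values mostly below 0 in cngc4 against ws2. From 5 fixed lists, 38 nuclear genes were tested. These were 15 of 26 listed for complex I and 16 of 21 for complexes II to IV with cytochrome c. For the ATP synthase they were 2 of 9, and for mitochondrial gene expression 1 of 7. For alternative dehydrogenases and oxidases they were 4 of 14, all dehydrogenases, so no alternative oxidase was tested. In cngc4 against ws2 limma called none of the 38. Of these, 6 had an unadjusted p under 0.05, all lower, and the median was -0.16. That count of 6 of 38 is a smaller share than the 23.9% of all tested probe sets at an unadjusted p under 0.05 in either direction. A value below 0 was found for 33 of the 38 and for 54.0% of all tested probe sets. For the 15 of complex I, the complex of nad4 and nad4L, the median was -0.10. For the 16 of complexes II to IV and cytochrome c, which include the complex of cox1, it was -0.20. The smallest p-values for complex I belonged to AT5G18800 (-0.36), FRO1 (-0.28), AT2G02050 (-0.25) and AT2G47690 (-0.22). In the other list they belonged to SDH1-2, for a flavoprotein subunit of complex II (-0.54, adjusted p = 0.101), CYTC-1, a cytochrome c (-0.33), AT3G27240 (-0.41) and AT2G47380 (-0.30). Outside the 4 smallest p-values, SDH1-1 of that same list had -0.23. AT1G53030 had 0.44 (adjusted p = 0.24), the 1 value above 0 among the 16. NDB2, an external alternative NADH dehydrogenase, had -0.44 (adjusted p = 0.0607), NDC1 -0.17, NDB1 0.06 and NDB3 0.05, the ATP synthase genes AT1G51650 and AT5G47030 -0.17 and -0.05, and AT5G46920 -0.23. Against akt1, 4 of the 38 were called lower in cngc4, beside 4.34% of all tested probe sets. These were CYTC-1 with a log2 fold change of -0.55, AT2G47380 with -0.59, AT2G47690 with -0.44 and NDB2 with -0.51 (limma adjusted p = 0.0208, 0.0178, 0.0497 and 0.0317). Against cngc1, 1 of the 38 was called, beside 5.17% of all tested probe sets. It was NDB2, lower in cngc4 by -0.50 (limma adjusted p = 0.0495). The F test over the 4 genotypes called 1 of the 38, AT2G31490 of complex I (limma adjusted p = 0.0452), beside 6.34% of all tested probe sets. For CYTC-1, whose heme is attached by the machinery that includes the ccb382 product, the signal was 1362.8, 1173.0 and 1394.3 in cngc4 roots against 2033.9, 2227.6 and 1577.2 in akt1 roots, the opposite direction to that of ccb382. Whether the mitochondrial and the nuclear genes differed from each other in their change was not tested. In cngc1 and akt1 against ws2, 0 of the 38 were called by limma, 3 and 7 had an unadjusted p under 0.05 (7.32% and 5.06% of all tested probe sets), and the medians were -0.03 and 0.06.

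**Figure D4:**
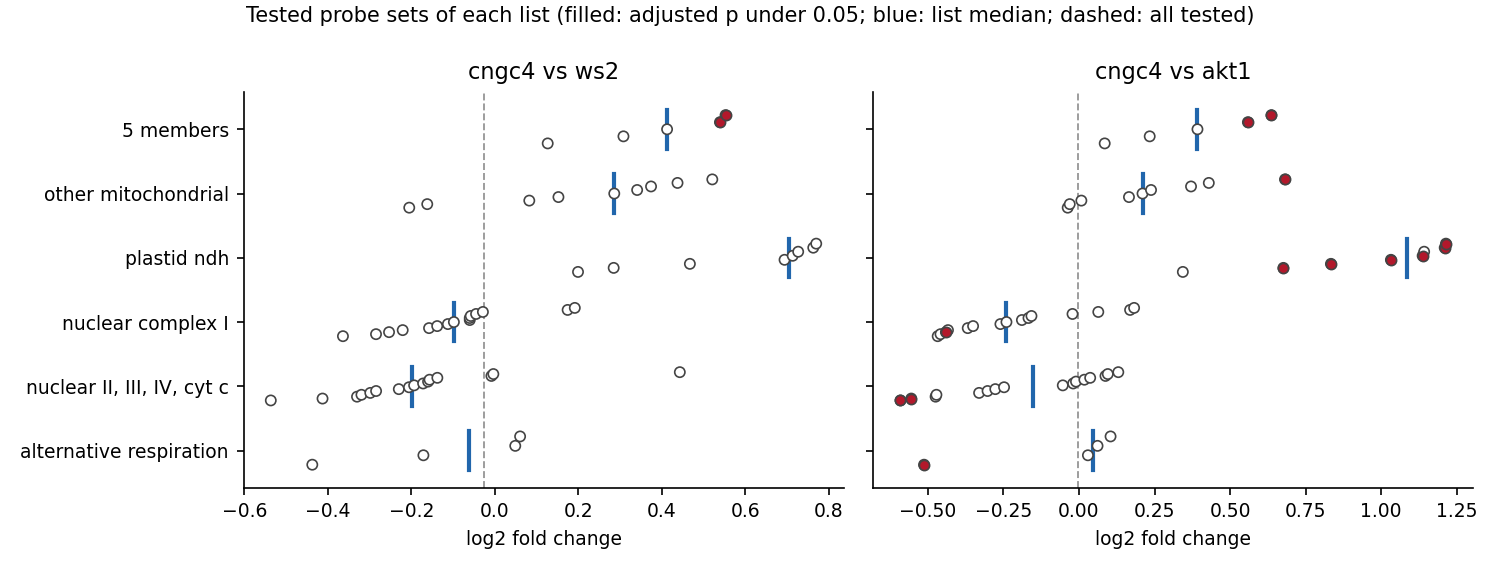
Log2 fold changes (horizontal axes) of all tested probe sets in 6 lists, in cngc4 vs ws2 (left) and cngc4 vs akt1 (right); filled points have a limma adjusted p under 0.05, blue bars are list medians and the dashed line is the median over all tested probe sets. In cngc4 vs ws2 the medians are 0.41 for the 5 genes, 0.29 for the other mitochondrial probe sets and 0.70 for plastid ndh, against -0.10 for nuclear complex I and -0.20 for nuclear complexes II to IV with cytochrome c.

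The 5 genes did not all vary alike from array to array. As a description over the 12 arrays, which share their groups and scaling, Pearson's r of log2 values was 0.703 between nad4L and orfX, 0.652 between nad4 and nad4L and 0.553 between the neighbours nad4 and orfX (Spearman's rho 0.664, 0.734 and 0.643). Taken as deviations from the genotype means, the same 3 pairs had r of 0.816, 0.682 and 0.703, so arrays of 1 genotype that were high in one of these genes tended to be high in the other two. Cox1 and nad4L, the genes that were higher in cngc4, had r of 0.625 over the arrays and -0.0752 in deviations from the genotype means. Ccb382 had deviations with r of -0.282 to 0.166 against each of the others. By the highest Pearson's r over the 12 arrays among 8127 tested probe sets that name 1 gene, the closest to nad4 were MAP1D (0.94), DER2.1 (0.926) and AT1G21770 (0.884), and to nad4L AT3G45770 (0.955), AT3G19900 (0.933) and WNK9 (0.912). The closest to cox1 were AT5G19120 (0.956), AT1G01730 (0.95) and AT1G26270 (0.943), to ccb382 AT2G32600 (0.959), AT1G18070 (0.934) and AT4G25550 (0.933), and to orfX AT5G57840 (0.948), the plastid gene rpoC2 (0.899) and AT3G45900 (0.89). These values are the highest of 8127 over only 12 arrays, and whether they exceed what such a search gives for unrelated genes was not tested. None of these 15 is a mitochondrial-genome gene. Only 9 of the 8127 probe sets are of that genome, so their absence from the closest 3 says little. Among the 8127, the closest of those 9 ranked 16th for cox1 (nad5, r = 0.914) and 32nd for nad4 (nad6, 0.772). It ranked 92nd for nad4L (nad9, 0.766), 100th for orfX (nad1, 0.685) and 1641st for ccb382 (nad5, 0.384).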

How the data were processed

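Whole-root RNA of 12 samples was labelled as biotin-cRNA from an oligo(dT) primer, per the labels' protocols. The signal intensities were used as deposited by the authors, on a linear scale; neither labels nor headers name the software or scaling. Gene names came from the platform annotation, with 13513 probe sets naming 1 gene, 503 several and 8794 unnamed here. Mitochondrial genes were matched by symbol to RefSeq's TAIR10.1 table for order. The 64 control probe sets were left out, 16 was added before log2, and 4 group means were fitted with limma 3.58.1 (R 4.3.3; eBayes with trend, two-sided); the code was tested on simulated data. The labels do not say whether the 3 samples of a genotype were grown separately, so the p-values cover sample-to-sample spread, which may be technical. The number of arrays limits precision. Alternatives changed the normalization, offset, filter, variance model, covariates and arrays. Genes and lists were chosen with earlier results of these data known. Named were the 5 genes, other mitochondrial genes that passed, and up to 2 a list by smallest p in cngc4 vs ws2 (up to 4 for nuclear lists). Also named were nuclear genes that passed in a comparison or the F test, SDH1-1 and AT1G53030 outside these rules, and the 3 probe sets most correlated with each gene. No pairing of samples by replicate number was assumed.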

Additional observations from a re-analysis of the deposited data

How the results depend on the processing

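The number of the 5 genes called in cngc4 vs ws2, 2 as reported, was 1 after quantile normalization, without an offset or with the 60th percentile filter, 0 with no filter, with the repeat mark as a covariate, without the marked arrays or within them, and 0 to 2 when 1 array was left out. In cngc4 vs akt1, 2 as reported, it was 1 after quantile normalization, with no filter, with the repeat mark as a covariate or with the replicate block, 0 without the marked arrays, and 0 to 2 leaving out 1 array. In cngc4 vs cngc1, 0 as reported, it was 1 with array weights (nad4L) or the replicate block (cox1) and 0 to 1 leaving out 1 array. The F test, 1 as reported, gave 0 after quantile normalization, with no filter, without a trend, with the repeat mark or without the marked arrays, 2 with the 60th percentile filter or array weights, and 0 to 1 leaving out 1 array. In cngc1 vs ws2, akt1 vs ws2 and cngc1 vs akt1 it was 0 in all 25 alternatives. With no filter more probe sets were adjusted over; the cause of the other changes was not tested. Over all tested probe sets, cngc4 vs ws2 gave 1340 calls as reported, 813 with no filter, 714 with the repeat mark, 2364 with array weights, 670, 589 and 886 without ws2 replicates 1, 2 and 3, 321 without cngc4 replicate 2, 15 without the marked arrays and 5 within them.

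Values near 0 changed sign. OrfX in cngc4 vs ws2 was -0.025 within the marked arrays. In cngc1 vs ws2, nad4L was -0.020 with array weights, -0.045 with the repeat mark and -0.072 without the marked arrays; orfX was -0.011 after quantile normalization and with array weights, -0.086 with the repeat mark and -0.017 without the marked arrays; nad4 was -0.14 and -0.016 and cox1 -0.034 and -0.15 in these last settings. Leaving out 1 array gave, in cngc1 vs ws2, nad4L -0.049 to 0.19, orfX -0.051 to 0.070, nad4 -0.045 to 0.28 and cox1 -0.060 to 0.16; in akt1 vs ws2, cox1 -0.16 to 0.0001; in cngc4 vs akt1, nad4 -0.20 to 0.29; in cngc4 vs cngc1, ccb382 -0.25 to 0.047 and nad4 -0.0097 to 0.48; and in cngc1 vs akt1, nad4L -0.20 to 0.039 and nad4 -0.41 to 0.018.

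The genotypes share replicate numbers, but of 18 pairs of samples with the same number 3 had deviations correlated above 0.1 (range -0.17 to 0.27), and no pairing was assumed. With the replicate block 2 genes were called in cngc4 vs ws2, 1 in cngc4 vs akt1, 1 in cngc4 vs cngc1 and 1 by the F test, which was cox1 in place of ccb382.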
